A study of Mus musculus with 16 samples.

Results

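The genes described here are markers and effector genes of T, B and NK lymphocytes, chosen by name: 35 genes, of which 21 mark T cells, 6 mark B cells and 8 mark NK and cytotoxic cells. Liver RNA was hybridised to 16 Agilent 1-colour arrays, on which 24357 genes passed the filter and were tested, among them 33 of the 35. The mice were male BALB/c animals aged 6 to 8 weeks when treatment began. Some were wild type (WT) and the others lacked Lcn2 (Lcn2-/-), the gene of the secreted protein lipocalin 2. The knockout was bred into BALB/c by repeated backcrossing, and the labels restrict it to no cell type. CCl4, which hepatocytes turn into a toxic radical, was given in corn oil by intraperitoneal injection at 0.5 ml per kg, 2 times per week over 4 weeks, and livers were taken 48 h after the final injection. Controls received corn oil. Of the arrays 4 were WT given oil (WT control), 3 were Lcn2-/- given oil (Lcn2-/- control), 5 were WT given CCl4 and 4 were Lcn2-/- given CCl4, each taken as 1 animal because the labels number them as replicates.

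T cells recognise antigen through a T cell receptor that signals through the CD3 chains, helped by the coreceptors CD4 or CD8 and by the kinases LCK and ZAP70. B cells signal through an antigen receptor carried by CD79A and CD79B. NK cells and cytotoxic T cells kill by releasing perforin and granzymes. Mouse liver holds many resident NK, T and NKT cells beside its hepatocytes, so whole-liver RNA carries their transcripts too.

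Signals are log2 values after quantile normalization, differences are on the same scale, and a gene was called when its adjusted p from limma fell under 0.05. The Lcn2 probe separated the genotypes, at 13.79 to 17.57 on WT arrays and 10.47 to 12.25 on Lcn2-/- arrays, although whether it lies within the deleted part was not analysed here. The albumin gene Alb lay at 18.93 in WT control and 18.97 in WT CCl4, and the mean level of 9 hepatocyte genes stayed between -0.13 and 0.22 around its own mean on every array. Between 51.6% and 60.9% of gene spots were well above background. Slide 1 held all controls and WT CCl4 replicate 1, and slide 2 held the other CCl4 arrays, so that 1 array alone separates treatment from slide. Lcn2-/- arrays all lay in the second row of their slide and WT arrays in the first, except WT CCl4 replicate 1. Genotype and row therefore cannot be told apart in the controls or among the CCl4 arrays of slide 2.

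Most lymphocyte genes did not pass the test for a response to CCl4. Il7r, the gene of the interleukin 7 receptor, rose in both genotypes. Cd4 was lower in both by the probe used, while its other probe was called in neither. In WT mice 7 of the 33 tested members were called, beside 16.8% of all genes. Of these, 1 was higher, beside 8.01% of all genes, and 6 were lower, beside 8.8%. In Lcn2-/- mice 2 were called, beside 12.2% of all genes: 1 higher, beside 6.57%, and 1 lower, beside 5.61%. No member was called between the genotypes under CCl4, where 0.636% of all genes were called, and 0 members passed even at an unadjusted p under 0.05, which 13.7% of all genes did. Between the controls 1 member, Themis, was called lower in Lcn2-/- mice, beside 0.53% of all genes called and 0.291% called lower. At an unadjusted p under 0.05 there were 8 members in the controls, beside 8.3% of all genes: Cd8b1, Ctla4, Eomes, Foxp3, Il7r, Lat, Themis and Trat1. Of these, Ctla4, Eomes, Foxp3 and Themis were well above background on WT arrays alone, and Trat1 on Lcn2-/- arrays alone. Ctla4, Eomes, Themis and Trat1 would not have passed the filter without the control group where they were high, so this count is a description. The interaction subtracts the CCl4 response of WT mice from that of Lcn2-/- mice, and Themis was again the 1 member called, beside 0.0534% of all genes. Themis passed the filter on dim probes only through the WT controls, the group where it was high, so its calls, which are counted above, are a description. The same holds for Pax5, which is counted among the lower calls in WT.

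**Figure D1:**
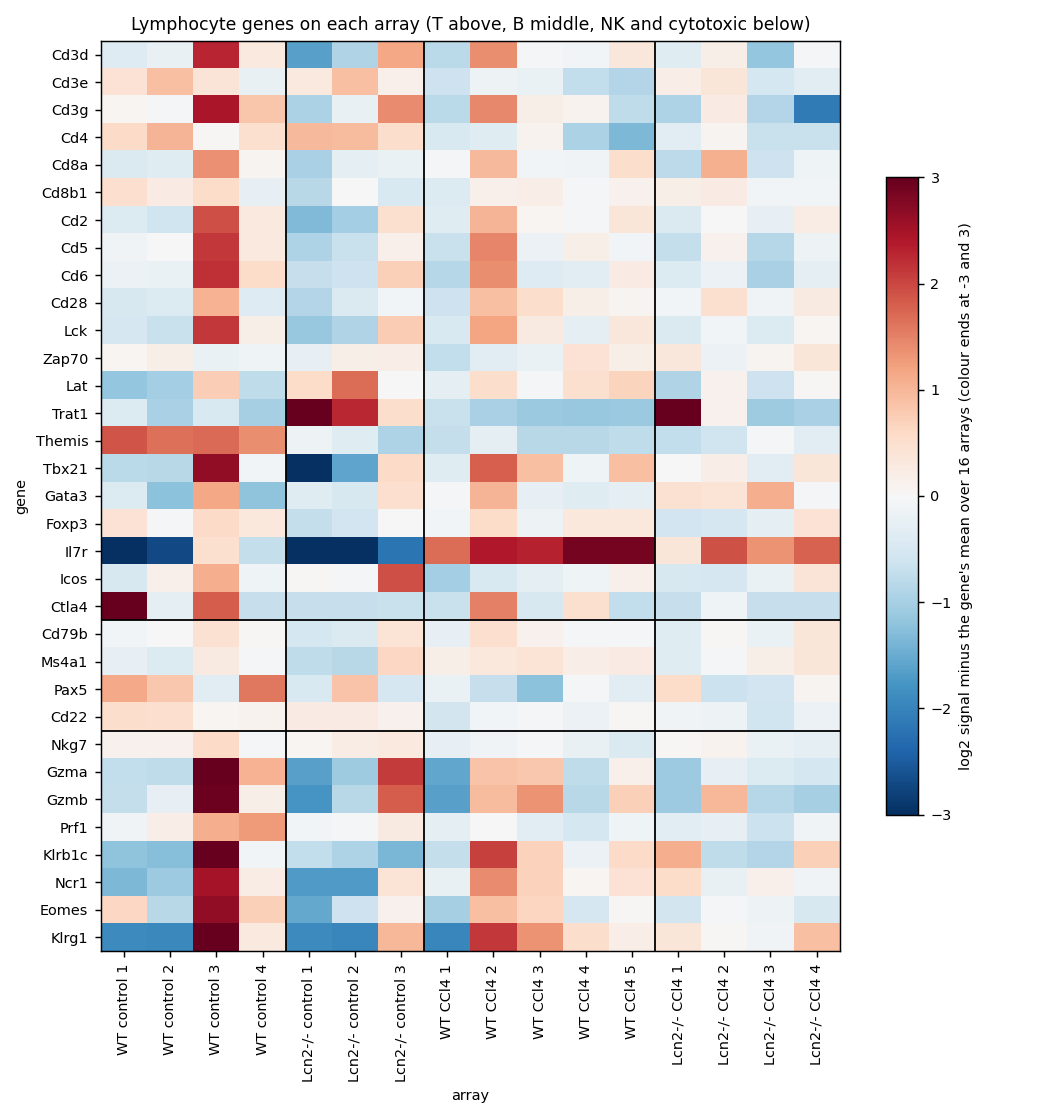
Log2 signal of the 33 tested members on each of the 16 arrays (columns, by group) minus the gene's own mean, red above and blue below, with T genes in the upper block, B genes in the middle and NK and cytotoxic genes in the lower block. WT control replicate 3, Lcn2-/- control replicate 3 and WT CCl4 replicate 2 stand out in red over many T and NK genes, and within each genotype Il7r separates control from CCl4 arrays.

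The spread between animals was wide for most T and NK genes and was shared across genes. WT control replicate 3 was the highest of the 4 WT controls for 24 of the 33 members, which compares with 21.6% of all genes. Lcn2-/- control replicate 3 was the highest of its 3 arrays for 24 members, against 32% of all genes, and WT CCl4 replicate 2 the highest of its 5 for 21 members, against 17.9%. WT CCl4 replicate 1 was the lowest of its 5 for 22 members, among them 13 T genes and 6 NK and cytotoxic genes, against 22.5% of all genes. Gzma, which encodes the granule protease granzyme A, shows the pattern most plainly. Its signal was 9.50, 9.48, 14.08 and 11.28 in the WT controls and 8.62, 9.18 and 12.34 in the Lcn2-/- controls. It was 8.70, 11.10, 11.04, 9.48 and 10.41 in WT CCl4 and 9.15, 9.99, 9.84 and 9.71 in Lcn2-/- CCl4. WT control replicate 3 thus lay 3.99 above the mean of the other WT controls, while the groups overlapped throughout and the WT response was -0.94 (SE 0.926, adjusted p = 0.532).

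Both control replicates 3 were also high for genes of other leukocytes. Over 10 pan-leukocyte genes, such as Ptprc, which encodes the CD45 phosphatase, the median difference between WT control replicate 3 and the other WT controls was 1.91, and all 10 were higher there. It was 1.62 over the T genes, 3.22 over the NK and cytotoxic genes, 0.08 over the B genes, 1.40 over 11 macrophage genes, 1.96 over 10 neutrophil genes, 0.61 over 6 stellate cell genes, all of them higher there, and -0.04 over 9 hepatocyte genes. Over all genes it was -0.09. For Lcn2-/- control replicate 3 against its group the median was 1.79 over the pan-leukocyte genes, 1.33 over the macrophage genes and 0.03 over the stellate cell genes. WT CCl4 replicate 2 was higher for all 10 pan-leukocyte genes, with a median of 0.84, but for 5 of the 11 macrophage genes, with a median of -0.04. The Lcn2 signal was highest on WT control replicate 3, at 17.57. The part of these values in the results below was not tested, and fewer cells of a type and less RNA per cell cannot be told apart in whole liver.

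**Figure D2:**
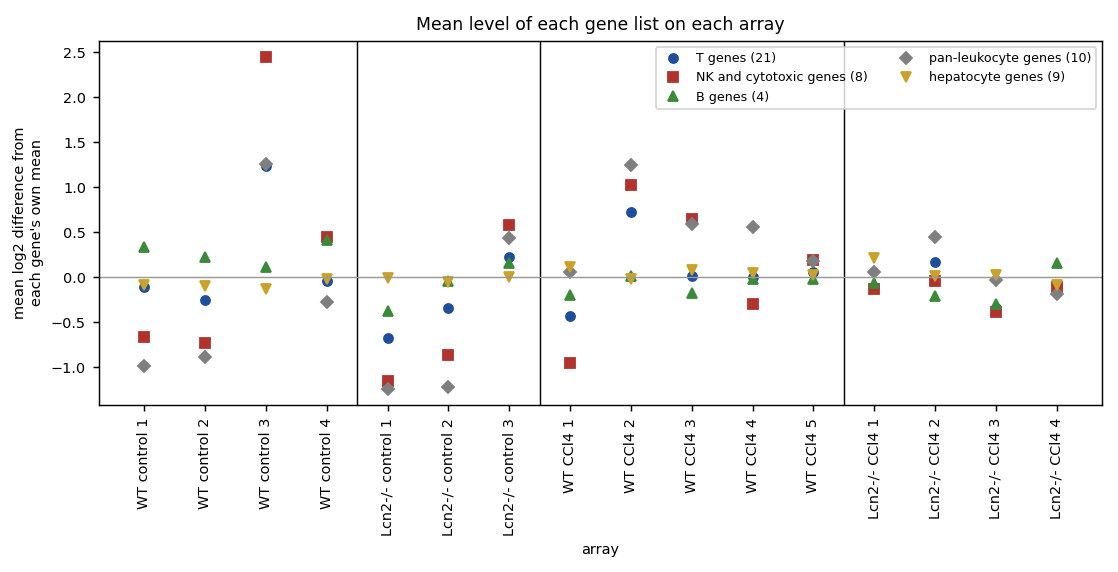
Mean level of 5 gene lists on each array (horizontal axis), as the mean log2 difference of the list's genes from their own means over 16 arrays (vertical axis). NK and cytotoxic genes range from -1.16 to 2.44 and T genes from -0.68 to 1.24, while hepatocyte genes stay near 0.

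Among the CD3 chains of the T cell receptor, Cd3e alone was called, lower with CCl4 in WT. Cd3e measured 11.29, 11.76, 11.23 and 10.63 in the WT controls and 10.24, 10.71, 10.66, 10.13 and 9.98 in WT CCl4. The groups overlapped only through WT control replicate 4, and the difference was -0.88 (SE 0.255, adjusted p = 0.029). Leaving out 1 array at a time ended the call in 5 of 16 fits, those without WT control replicate 1 or 2 or WT CCl4 replicate 1, 4 or 5, with an adjusted p of up to 0.108. Among Lcn2-/- mice it went from 11.30 ± 0.39 (SD, n = 3) to 10.78 ± 0.42 (SD, n = 4), a difference of -0.52 (SE 0.291, adjusted p = 0.269). Cd3g followed the animals that were high for other T genes, with 6.82, 6.71, 9.22 and 7.59 in the WT controls and 5.94 to 8.21 in WT CCl4. Its difference of -0.79 in WT (SE 0.65, adjusted p = 0.444) was not called. Nor was that in Lcn2-/- mice (SE 0.74, adjusted p = 0.413), where the means were 6.84 in control and 5.84 in CCl4. Cd3d, the third chain, gave -0.33 and 0.11 and was not called in either genotype. The called Cd3e did not track its partner chains. WT control replicate 3 differed from the other WT controls by 0.01 for Cd3e, 2.40 for Cd3d and 2.18 for Cd3g. For Lcn2-/- control replicate 3 these values were -0.44, 2.43 and 2.01.

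Of the coreceptors, Cd4 was lower with CCl4 in both genotypes. Its signal was 15.24, 15.68, 14.70 and 15.13 in the WT controls and 14.21, 14.30, 14.76, 13.71 and 13.31 in WT CCl4. The Lcn2-/- controls measured 15.62, 15.61 and 15.19, and Lcn2-/- CCl4 14.34, 14.74, 14.00 and 13.99. Every Lcn2-/- control lay above every Lcn2-/- CCl4 array, whereas WT control replicate 3 fell just below the highest WT CCl4 array. The difference was -1.13 in WT (SE 0.276, adjusted p = 0.0118) and -1.20 in Lcn2-/- (SE 0.314, adjusted p = 0.0216), and the interaction was -0.07 (SE 0.418). Leaving out 1 array at a time ended the Lcn2-/- call in 4 of 16 fits, those without Lcn2-/- control replicate 1 or 2 or Lcn2-/- CCl4 replicate 3 or 4, with an adjusted p of up to 0.0871, and the WT call in 0 fits. Within slide 1 the single WT CCl4 array, replicate 1, measured 14.21 against a WT control mean of 15.19. This is the array that was low for most members, and it lay below that mean for uncalled genes too, with a difference of -2.39 for Gzma and -1.64 for Cd3g. Its differences for the other genes called lower were -0.98 for Cd3e, -2.37 for Themis, -0.91 for Prf1, -0.45 for Nkg7 and -0.98 for Pax5. The used Cd4 probe did not follow the animals that were high for other T genes. Its difference between control replicate 3 and the rest of the group was -0.65 in WT and -0.43 in Lcn2-/- mice. For Lck the same differences were 2.44 and 1.78. The second probe of Cd4, with a mean of 5.59 against 14.66 for the used one, did not pass the test, as described with the probe pairs below.

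Neither chain of CD8 was called. Cd8a was well above background on 3 arrays only and measured 4.22 ± 0.85 (n = 4) in WT control and 4.31 ± 0.47 (n = 5) in WT CCl4, as mean ± SD. Cd8b1 measured 5.75 to 6.56 and 5.59 to 6.19 in the same groups, a difference of -0.26 (SE 0.197, adjusted p = 0.396). The Lcn2-/- means of Cd8b1 went from 5.56 ± 0.42 (n = 3) to 6.06 ± 0.17 (n = 4), a difference of 0.50 (SE 0.225, adjusted p = 0.171).

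Il7r, which encodes the receptor chain through which lymphocytes receive the survival signal of interleukin 7, rose more than any other member in both genotypes. It measured 3.37, 4.50, 7.68 and 6.49 in the WT controls and 2.90, 2.90 and 5.01 in the Lcn2-/- controls. With CCl4 it measured 8.88, 9.61, 9.52, 10.07 and 10.07 in WT and 7.55, 9.11, 8.55 and 8.97 in Lcn2-/- mice. Control and CCl4 arrays did not overlap in either genotype. The difference in WT was 4.12 (SE 0.731, adjusted p = 0.00141), and the probe was well above background on 2 of the 4 WT controls. On none of the Lcn2-/- controls was it well above background, so that the rise there is a bound: at least 8.15-fold higher with CCl4 (adjusted p = 0.00156; measured means 3.61 and 8.55). The size depends on how background is treated: normexp correction gave 2.58 in WT and 2.42 in Lcn2-/- mice, both called, the latter smaller than the bound, which holds only for the processing used here. On slide 1 the single WT CCl4 array lay 3.37 above the WT control mean. With slide as a term in the model the WT difference was 3.37, with an adjusted p of 0.141, and 6 of the 7 WT calls were lost, while both Lcn2-/- calls were lost as well. That model called 5.35% of all genes in WT and 1.74% in Lcn2-/- mice. Its 2 member calls in WT were Cd22 and Themis. The slide term is set by WT CCl4 replicate 1 alone.

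Within the controls Il7r was highest on both replicates 3, as most T genes were, yet its lowest value in WT CCl4, 8.88, exceeded the highest control value of either genotype, 7.68. Its lowest value in Lcn2-/- CCl4, 7.55, exceeded the highest Lcn2-/- control, 5.01, but not that WT control. Between genotypes under CCl4 the Il7r difference was -1.08 (SE 0.731, adjusted p = 0.535). Within slide 2, where genotype and row coincide, it was -1.27. Among the controls the means were 5.51 in WT and 3.61 in Lcn2-/- mice, the latter not well above background, and the test was not passed (adjusted p = 0.542).

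**Figure D3:**
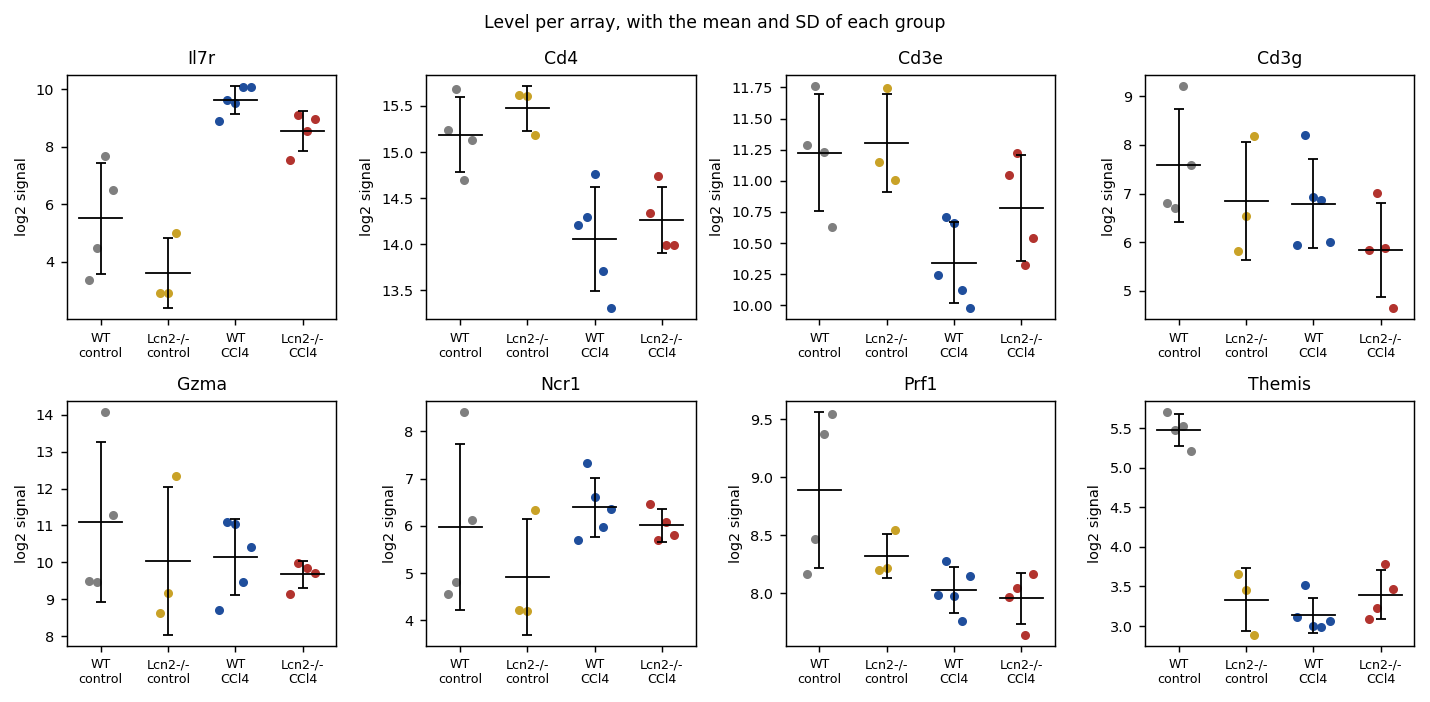
Log2 signal of 8 members on each array (points), with the mean of each group (line) and its SD (bars). Control and CCl4 arrays are apart within each genotype for Il7r and in WT for Themis; Gzma, Ncr1 and Cd3g overlap across the groups, with single high control arrays.

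Themis, which encodes a protein that sets the strength of T cell receptor signals in the thymus, was the member called between the controls and in the interaction, but at the lower limit of detection. It measured 5.71, 5.48, 5.53 and 5.21 in the WT controls, against 2.89 to 3.66 in the Lcn2-/- controls, 2.98 to 3.52 in WT CCl4 and 3.09 to 3.79 in Lcn2-/- CCl4. All 4 WT controls lay above every other array, but the probe was well above background on 3 of them and on no array of the other groups. Those 3 arrays alone carried it past the filter on dim probes, so every test of Themis rests on the group that let it in, and its values are given as a description. With that limit, it was at least 1.65-fold lower in WT CCl4 than in WT control (adjusted p = 2.51e-06; measured means 3.14 and 5.48). The size depends on the processing: normexp correction gave -0.63 in WT and the authors' log2 values -1.21. The former is smaller than the bound, which holds only for the processing used here. Between the controls the adjusted p was 6.42e-05 (measured means 3.34 and 5.48), and no fold is given, since the detection floor of the Lcn2-/- control arrays lay above the WT mean. The fitted interaction of 2.40 (SE 0.277, adjusted p = 0.00236) rests on values that were not well above background in 3 of the 4 groups. Arrays with the same replicate number deviated together between the 2 control groups, although the labels state no pairing. With the replicate number as a block in limma the adjusted p of the interaction was 0.0634, above the threshold. The second Themis probe was well above background on 0 arrays.

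Of the other T cell signalling genes, Lck, which encodes the kinase that starts receptor signalling, measured 8.79, 8.63, 11.41 and 9.47 in the WT controls and 8.83, 10.47, 9.57, 8.99 and 9.63 in WT CCl4. The single high control exceeded every CCl4 array, and the difference was -0.08 (SE 0.535, adjusted p = 0.945). The Lcn2-/- difference was 0.22 (SE 0.609, adjusted p = 0.855). Zap70, the kinase that binds the phosphorylated CD3 chains, differed by -0.10 in WT and 0.11 in Lcn2-/- mice and varied by 1.18 over all 16 arrays. Lat, which encodes the adaptor downstream of ZAP70, went in opposite directions without passing the test, at 0.82 in WT (SE 0.409, adjusted p = 0.193) and -1.09 in Lcn2-/- mice (SE 0.466, adjusted p = 0.148). Without WT control replicate 3, at 7.61 its highest WT control, the WT difference of Lat was 1.25 and was called (adjusted p = 0.022). Leaving out the highest control raises the difference by construction. The interaction of Lat, -1.91 (SE 0.62), was not called. Trat1, which encodes a receptor-associated adaptor, was well above background on 2 Lcn2-/- controls and 1 Lcn2-/- CCl4 array. Its values were 7.07, 6.34 and 4.62 in the Lcn2-/- controls and at most 3.69 in WT control. The fitted difference between the controls did not pass the test (adjusted p = 0.349).

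Foxp3, the transcription factor of regulatory T cells, measured 5.61, 5.14, 5.75 and 5.49 in the WT controls and 4.46, 4.60 and 5.19 in the Lcn2-/- controls. It was well above background on 3 WT control and 4 WT CCl4 arrays and on 0 Lcn2-/- arrays. The control means were 5.50 in WT and 4.75 in Lcn2-/- mice, the latter not well above background (adjusted p = 0.337), and the CCl4 response in WT was -0.12 (SE 0.225). Under CCl4 the genotypes overlapped and the test was not passed (adjusted p = 0.422; means 4.94 in Lcn2-/- and 5.37 in WT), with Lcn2-/- CCl4 replicate 4, at 5.60, above 4 of the 5 WT CCl4 arrays. Tbx21, the factor of type 1 T cells and NK cells, ranged from 5.44 to 8.94 in the WT controls and from 2.96 to 6.86 in the Lcn2-/- controls, and no contrast called it. Gata3, the factor of type 2 T cells, differed by 0.44 in WT (SE 0.453, adjusted p = 0.555) and by 0.60 in Lcn2-/- mice (SE 0.515, adjusted p = 0.492). The adhesion and costimulatory receptor genes Cd2, Cd5, Cd6, Cd28, Icos and Ctla4 gave WT responses between -1.01 and 0.27 and Lcn2-/- responses between -0.84 and 0.60, with 0 of 6 called by limma in either contrast and 0 at an unadjusted p under 0.05, which 30.7% of all genes reached in WT and 27% in Lcn2-/- mice. So few genes cannot be set apart from that background.

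Over the 21 T genes together, 6 were higher and 15 lower with CCl4 in WT, with a median difference of -0.26 beside -0.03 over all genes. In Lcn2-/- mice 14 were higher and 7 lower, with a median of 0.11 beside -0.02. Without WT control replicate 3 the WT median was -0.04, with 10 higher and 11 lower. Without Lcn2-/- control replicate 3 the Lcn2-/- median was 0.40, and with slide as a block, which rests on the low WT CCl4 replicate 1, it turned to -0.65, with 4 higher and 17 lower. In WT the same block gave -0.71. Each control replicate 3 was the highest of its group for 15 of the 21 T genes, so that leaving it out raises the median by construction. Of 19 further T cell genes, such as Cd247, which encodes the CD3 zeta chain, 1 was called in WT and 0 in Lcn2-/- mice, where medians were -0.08 and 0.21. The one called was Cd27, a costimulatory receptor gene, which fell by 0.795 in WT (SE 0.202, adjusted p = 0.0148).

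**Figure D4:**
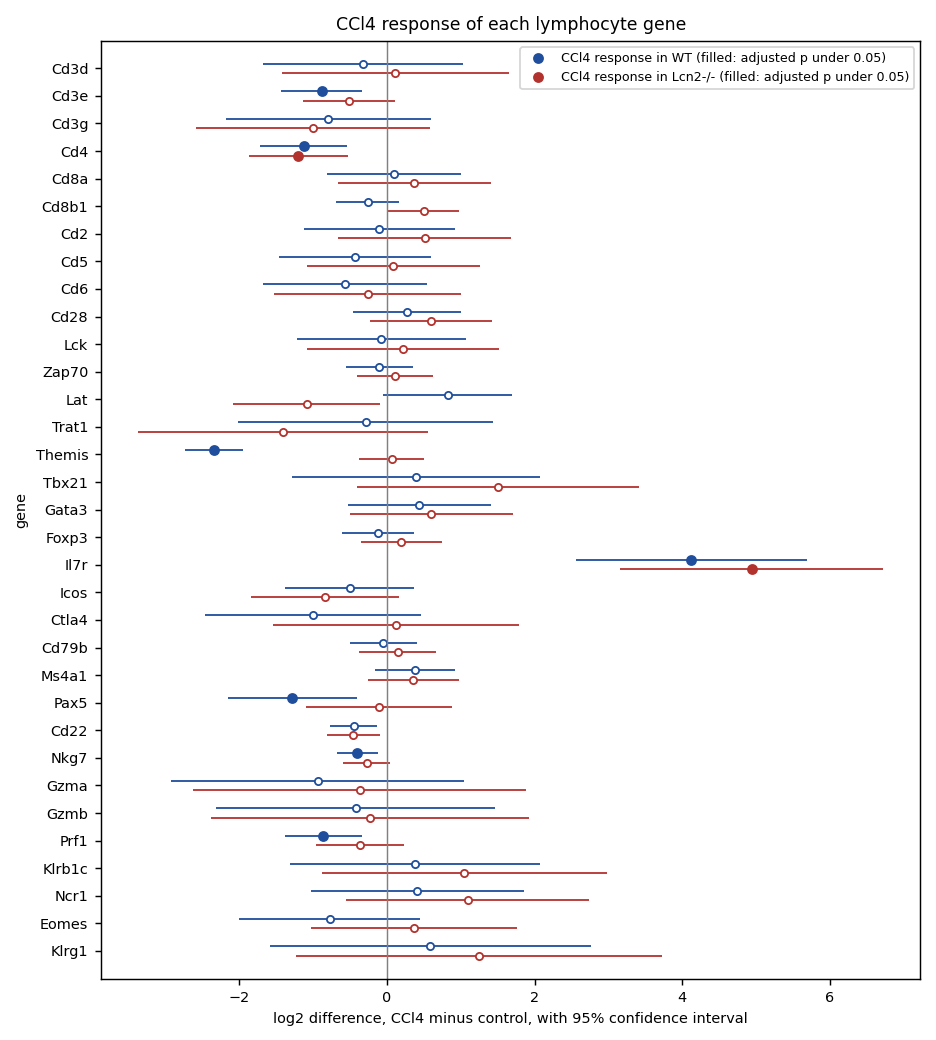
CCl4 minus control difference of each tested member on the log2 scale (horizontal axis) with its 95% confidence interval, in WT (blue) and Lcn2-/- mice (red), filled where the adjusted p was under 0.05. Il7r lies far to the right in both genotypes, at 4.12 in WT, while its point in Lcn2-/- mice is the fitted value against controls that were not well above background and so not a measured size. Cd4 lies at -1.13 and -1.20, and most intervals cross 0.

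Of the B cell genes, Cd79a and Blk were not well above background on any array and were not tested. Cd79b, which encodes the signalling partner of CD79A, measured 10.08 ± 0.24 (SD, n = 4) in WT control and 10.03 ± 0.28 (n = 5) in WT CCl4, a difference of -0.05 (SE 0.213, adjusted p = 0.911). The Lcn2-/- difference was 0.14 (SE 0.243, adjusted p = 0.748). Ms4a1, which encodes CD20, measured 7.29, 7.14, 7.81 and 7.48 in the WT controls and 7.72, 7.85, 7.95, 7.74 and 7.78 in WT CCl4. It differed by 0.38 in WT (SE 0.254, adjusted p = 0.342) and by 0.36 in Lcn2-/- mice (SE 0.29, adjusted p = 0.462). Without Lcn2-/- control replicate 3 the Lcn2-/- difference was 0.83 and was called (adjusted p = 0.0172). That array, at 8.16, was the highest Lcn2-/- control, so that leaving it out raises the difference by construction.

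Pax5, the transcription factor that fixes B cell identity, was lower with CCl4 in WT. It measured 5.82, 5.51, 4.34 and 6.26 in the WT controls and 4.50, 4.01, 3.47, 4.66 and 4.35 in WT CCl4, and the groups overlapped through WT control replicate 3. The difference was -1.28 (SE 0.407, adjusted p = 0.0438), with the probe well above background on 3 of the 4 controls and 1 of the 5 CCl4 arrays. On the arrays outside the WT controls it was detected 2 times, fewer than the filter asks, so that Pax5, like Themis, was tested only through the group where it was high and its call is a description. Leaving out 1 array at a time ended the call in 9 of 16 fits, with an adjusted p of up to 0.129. In Lcn2-/- mice, where 1 CCl4 array and no control was well above background, it was not called (adjusted p = 0.909). Cd22, an inhibitory receptor of B cells, was named after its values were seen. It measured 10.43 to 10.90 in the WT controls and 9.83 to 10.42 in WT CCl4, and 10.52 to 10.62 and 9.79 to 10.28 in the Lcn2-/- groups, so that neither pair of groups overlapped. Its differences of -0.45 (SE 0.148, adjusted p = 0.0505) and -0.46 (SE 0.169, adjusted p = 0.0951) were not called.

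Further genes of B and plasma cells were measured on the same arrays. Of 18 tested, 14 had a higher mean with CCl4 in WT, with a median of 0.35, and 14 in Lcn2-/- mice, with a median of 0.42, beside 46.3% and 47.6% of all genes. Cd37, a tetraspanin gene, rose by 0.70 in WT (adjusted p = 0.0334). Cd72, a B cell coreceptor gene, rose by 1.64 in WT (adjusted p = 0.0193). Tnfrsf13c, which encodes the receptor of the survival factor BAFF, rose by 2.02 in Lcn2-/- mice (adjusted p = 0.0321), where 1 of the 3 controls was well above background. Tnfrsf13b, which encodes the related receptor TACI, fell by 0.385 in WT (adjusted p = 0.0353). The other 14 passed the test in neither genotype.

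The NK and cytotoxic genes varied widely between animals. Gzmb, which encodes granzyme B, measured 6.28, 6.74, 9.92 and 7.16 in the WT controls and 5.36, 7.95, 8.33, 6.17 and 7.71 in WT CCl4. The groups overlapped over most of their range, and the difference was -0.42 (SE 0.884, adjusted p = 0.791). Its Lcn2-/- difference was -0.23 (SE 1.01, adjusted p = 0.912). Ncr1, which encodes the NK cell receptor NKp46, measured 4.56, 4.82, 8.41 and 6.13 in the WT controls and 4.23, 4.21 and 6.33 in the Lcn2-/- controls. Under CCl4 it measured 5.70, 7.33, 6.60, 5.98 and 6.35 in WT and 6.47, 5.69, 6.08 and 5.81 in Lcn2-/- mice. The WT CCl4 arrays lay below the highest WT control, and 1 Lcn2-/- CCl4 array lay above every Lcn2-/- control. The differences were 0.41 (SE 0.674, adjusted p = 0.726) and 1.09 (SE 0.768, adjusted p = 0.388). With both control replicates 3 left out the differences were 1.22 and 1.80. These were the highest control of each genotype, so that leaving them out raises the difference by construction and no test is given. Klrb1c, a gene of the NKR-P1 family of NK cell receptors, was well above background on 4 arrays and reached 7.23 on WT control replicate 3 and 6.31 on WT CCl4 replicate 2. Klrg1, which encodes an inhibitory receptor of NK and effector T cells, was well above background on 7 arrays and differed by 0.59 in WT (SE 1.02, adjusted p = 0.742) and 1.25 in Lcn2-/- mice (SE 1.16, adjusted p = 0.526). Eomes, a transcription factor of NK cells, was well above background on 1 WT control and 2 WT CCl4 arrays. It measured 5.08, 3.62, 7.10 and 5.18 in the WT controls and 2.92, 3.84 and 4.58 in the Lcn2-/- controls, which overlapped (adjusted p = 0.558).

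Prf1, which encodes the pore-forming protein perforin, was lower with CCl4 in WT. It measured 8.17, 8.47, 9.37 and 9.55 in the WT controls and 7.98, 8.28, 7.97, 7.76 and 8.14 in WT CCl4. The overlap was limited to the lowest control and the highest CCl4 array, and the difference was -0.86 (SE 0.244, adjusted p = 0.0259). The call was lost without WT control replicate 3 (adjusted p = 0.0641), without WT control replicate 4 (0.0798), and without WT CCl4 replicate 1 or 4. It was also lost with the replicate number as a block and with the contrast's own groups alone. Every Lcn2-/- CCl4 array, from 7.64 to 8.16, lay below every Lcn2-/- control, from 8.20 to 8.54, with a difference of -0.36 (SE 0.278, adjusted p = 0.428).

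Nkg7, which encodes a cytotoxic granule membrane protein, was called narrowly in WT. The signal was 12.03, 12.03, 12.47 and 11.88 in the WT controls and 11.65, 11.81, 11.87, 11.69 and 11.48 in WT CCl4, and the groups did not overlap. The difference was -0.40 (SE 0.131, adjusted p = 0.0495), and leaving out 1 array at a time ended the call in 13 of 16 fits. The replicate number as a block ended it too. The Lcn2-/- arrays differed by -0.28 (SE 0.15, adjusted p = 0.252).

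Over the 8 NK and cytotoxic genes, 3 were higher and 5 lower with CCl4 in WT, with a median of -0.41. Without WT control replicate 3 the median was 0.22, with 5 higher and 3 lower. Each control replicate 3 was the highest of its group for 7 of the 8 genes, so that leaving it out raises the median by construction. In Lcn2-/- mice 4 were higher and 4 lower, with a median of 0.07. It was 0.79 without Lcn2-/- control replicate 3 and -0.69 with slide as a block, which gave -1.35 in WT. Of 15 further NK and cytotoxic genes, 10 had a higher mean with CCl4 in WT, with a median of 0.24, and 11 in Lcn2-/- mice, with a median of 0.68, beside the 46.3% and 47.6% of all genes given above. Of these 15 genes, 14 were higher on WT control replicate 3 and 12 on Lcn2-/- control replicate 3 than in the rest of their group. Sh2d1b1, which encodes the NK cell adaptor EAT-2, was called in both genotypes, at 2.21 in WT (SE 0.482, adjusted p = 0.00605), where 1 of 4 controls was well above background. Since none of the Lcn2-/- controls was, the rise there is at least 1.39-fold (adjusted p = 0.00322; measured means 3.08 and 5.99). The probe that the array design names Klra8, a gene of the Ly49 receptors, rose by 2.02 in Lcn2-/- mice (adjusted p = 0.0417) and differed by 1.57 in WT (adjusted p = 0.0568). The Ly49 genes are close copies that differ in number between mouse strains, and BALB/c is known to lack Klra8 itself, so which gene gave this signal is uncertain. Gzmk, which encodes granzyme K, fell by 0.666 there (adjusted p = 0.0093).

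The genotypes were then compared directly. Under CCl4, 8 of 21 T genes, 1 of 4 B genes and 1 of 8 NK and cytotoxic genes were higher in Lcn2-/- mice, with medians of -0.37, -0.09 and -0.36 beside 0.00 over all genes, and limma called none. Some lists of other cells lay the same way there. Of 10 pan-leukocyte genes 1 was higher, with a median of -0.49, and of 11 macrophage genes 3, with -0.62. Of 10 neutrophil genes 2 were higher, with -0.80, and of 6 stellate cell genes 0, with -0.50. Among the further T, B and NK genes 6 of 19, 5 of 18 and 2 of 15 were higher, with -0.26, -0.27 and -0.52. Of 9 hepatocyte genes 3 were higher, with -0.03, and of 2 pancreas genes 1, with -0.11. Other lists lay the other way. Of 7 dendritic cell genes 5 were higher, with 0.10, of 5 cholangiocyte genes 3, with 0.05, and of 3 erythroid and spleen genes 2, with 0.16. The part of any of these lists in the lymphocyte values was not tested. In the controls 7 of 21, 0 of 4 and 0 of 8 were higher in Lcn2-/- mice, with medians of -0.72, -0.25 and -0.93. Of the pan-leukocyte genes 0 of 10 were higher there, with a median of -0.41, and of the stellate cell genes 0 of 6, with -0.62. Of the macrophage genes 4 of 11 were higher, with -0.13, and of the dendritic cell genes 1 of 7, with -0.10. Of the cholangiocyte genes 2 of 5 were higher, with -0.46, and of the erythroid and spleen genes 0 of 3, with -0.43. Among the further T, B and NK genes 2 of 19, 1 of 18 and 2 of 15 were higher, with -0.41, -0.32 and -0.79. The neutrophil genes lay the other way, with 6 of 10 higher and a median of 0.12. So did 7 of 9 hepatocyte genes, with 0.06, and 2 of 2 pancreas genes, with 0.20. The part of these lists in the lymphocyte values was not tested. Over the 9 T genes well above background on all 16 arrays the control median was 0.07, with 5 higher and 4 lower. Without WT control replicate 3 the medians over all tested members were -0.25, -0.17 and -0.10, and without Lcn2-/- control replicate 3 they were -0.97, -0.59 and -1.78. Leaving out an array that was high for most members moves these medians by construction. These control arrays are also those of the CCl4 responses. In the controls Cd8b1 differed by -0.71 (SE 0.225, adjusted p = 0.276) and Ncr1 by -1.06 (SE 0.768, adjusted p = 0.894), and neither passed the test.

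Leukocyte genes outside the lymphocyte lists were measured on the same arrays. Of 10 pan-leukocyte genes 9 were higher with CCl4 in WT, with a median of 0.82, and 9 in Lcn2-/- mice, with a median of 0.90. Of these, Laptm5, a lysosomal membrane gene of blood cells, was called, higher by 1.43 in WT (adjusted p = 0.0321). Of 11 macrophage genes 6 were higher and 5 lower with CCl4 in each genotype, with medians of 0.07 in WT and 0.03 in Lcn2-/- mice. Those called higher in both were Cd68, Gpnmb, Lgals3 and Trem2, by 2.12, 7.10, 2.97 and 3.81 in WT. In Lcn2-/- mice Cd68 rose by 1.84, Lgals3 by 2.45 and Trem2 by 4.05, and Gpnmb, not well above background in the Lcn2-/- controls, was at least 278-fold higher with CCl4 (measured means 3.79 and 13.64). Clec4f, a gene of Kupffer cells, fell by 1.03 in WT (adjusted p = 0.00533). Gpnmb was also at least 4.09-fold lower in Lcn2-/- than in WT control (adjusted p = 0.0132; measured means 3.79 and 7.55). Of 10 neutrophil genes 6 rose in WT, with Ngp at 4.08, Mmp8 at 3.24, Retnlg at 2.61, S100a8 at 2.31, S100a9 at 1.96 and Camp at 1.29. Ngp and Mmp8 were each well above background on 1 of the 4 WT controls. Of the 6, Retnlg rose in Lcn2-/- mice by 2.84, and Mmp8, not well above background in the controls there, by at least 2.27-fold (measured means 4.02 and 6.71). Itgax, which encodes the integrin CD11c, rose by 4.08 in WT (adjusted p = 0.00178) and 4.69 in Lcn2-/- mice (adjusted p = 0.00251).

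Where a gene had more than one tested probe, the pairs differed in how far they tracked each other. The probes of Cd2 and of Zap70 were high and low on mostly the same arrays. Both Icos probes were highest on the control replicates 3, yet under CCl4 they parted, and on WT CCl4 replicate 5 the used probe was the highest of its group at 8.77 and the other the lowest at 5.35. Those of Cd4, Nkg7 and Cd6 gave differences of unlike size. Bases 31 to 60 of the last 3 pairs of 60-base probes are shown, 5′ to 3′ in the sense of the transcript, because the value of the gene depends on which probe is read. Capitals mark the polyadenylation hexamers AATAAA and ATTAAA, searched on this strand; 15.9% of all tested probes held either one anywhere in their 60 bases. Positions are on mm9, as the files give them.
Cd4 used probe, chr6:124814711-124814770, minus strand: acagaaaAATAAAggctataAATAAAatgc
Cd4 other probe, chr6:124817706-124817765, minus strand: gcagtgtctactgagtgaaggtgataaggt
Nkg7 used probe, chr7:50693530-50693589, plus strand: ccaccttgccttatccttcattggtttctt
Nkg7 other probe, chr7:50693148-50693207, plus strand: ccagtatgagatggagccagactccatttt
Cd6 used probe, chr19:10863829-10863888, minus strand: cagagATTAAAcgattactgagtgaaaact
Cd6 other probe, chr19:10867422-10868678, minus strand: caccattgccaaagaagctcctatgctgtt

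The used Cd4 probe, which holds the hexamers, gave the fall described above. The other Cd4 probe measured 5.83, 6.01, 5.34 and 5.61 in the WT controls and 5.59, 5.43, 5.32, 5.41 and 5.50 in WT CCl4. It differed by -0.24 in WT (SE 0.138, adjusted p = 0.258) and -0.19 in Lcn2-/- mice (SE 0.157, adjusted p = 0.482), in a fit over 33014 probes of which 15% were called in WT and 11.1% in Lcn2-/- mice.

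The other Nkg7 probe measured 5.97, 6.38, 10.07 and 7.59 in the WT controls, 5.04, 5.14 and 9.01 in the Lcn2-/- controls, and 6.25, 8.72, 7.95, 7.23 and 7.49 in WT CCl4. It thus followed the same animals as Gzma and Ncr1, while the used probe varied by 0.993 over all arrays. Its difference in WT was 0.03 (SE 0.878, adjusted p = 0.99), and in this fit over probes the used probe itself missed the threshold (adjusted p = 0.0565).

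The pair for Cd6, which encodes a CD5-related receptor of T cells, split the other way. The used probe measured 7.08, 7.08, 9.45 and 7.81 in the WT controls and 6.41, 8.66, 6.89, 6.95 and 7.51 in WT CCl4, and was not called (-0.57, SE 0.52, adjusted p = 0.506). The other probe measured 7.48, 7.17, 6.41 and 6.75 in the WT controls and 5.03, 5.08, 5.18, 5.36 and 5.72 in WT CCl4, without overlap. It was called lower in WT (-1.68, SE 0.24, adjusted p = 0.000311) and in Lcn2-/- mice (-1.26, SE 0.274, adjusted p = 0.00861). On mm9 its 60 bases span 1257, so that it is split on the genome, while the used probe is not.

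**Figure D5:**
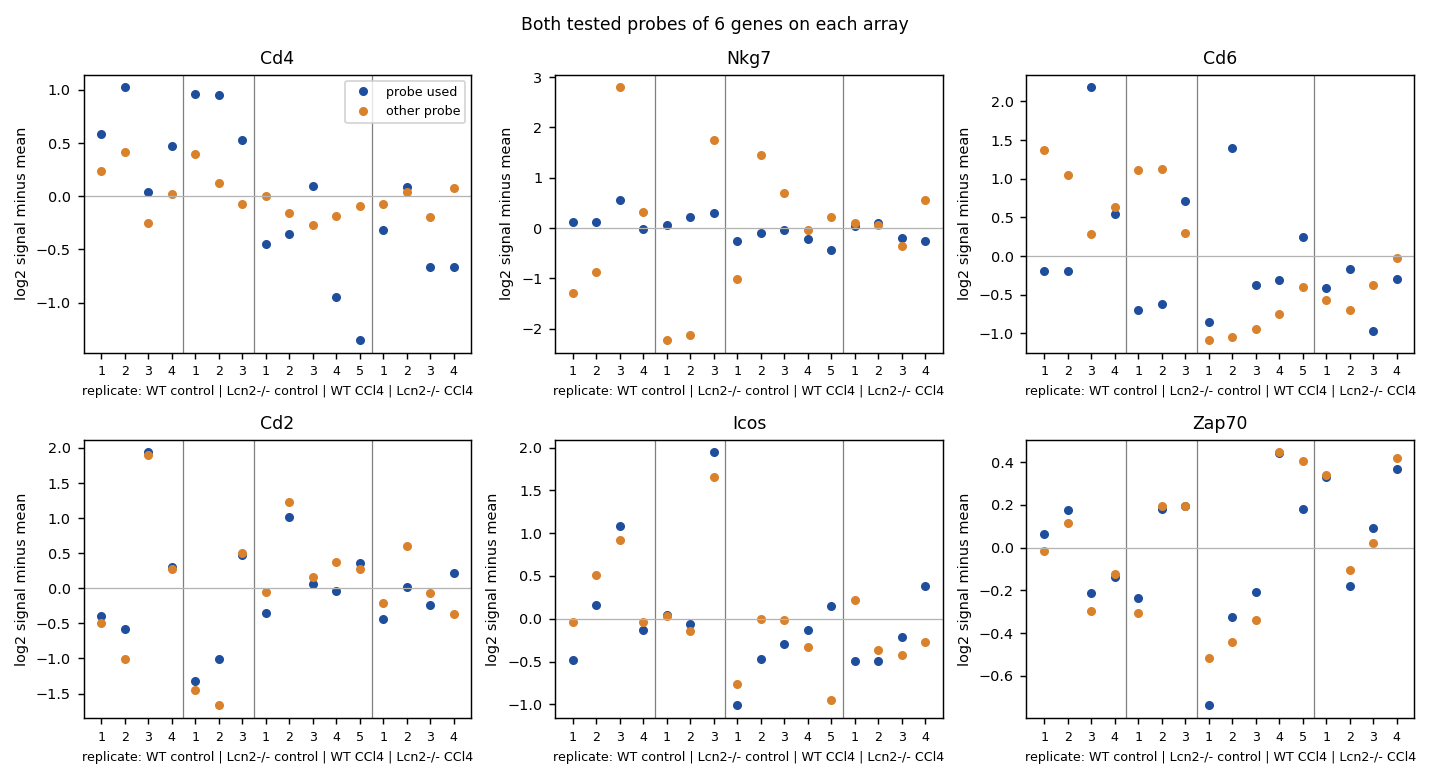
Log2 signal minus the probe's own mean for both tested probes of 6 genes (used probe blue, other probe orange) on each array, with group borders as vertical lines. The pairs of Cd2 and Zap70 lie close together on most arrays, while those of Icos part on WT CCl4 replicate 5; for Nkg7 the other probe peaks on control replicates 3, and for Cd6 the other probe separates control from CCl4.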

How the data were processed

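Total liver RNA was labelled with Cy3 and hybridised to 1-colour arrays, and the authors read the spots with Feature Extraction 10.7.3.1. The deposited intensity values are linear, background-subtracted and detrended by that software, and not normalized between arrays. A second table, of log2 values that the authors normalized, served as an alternative. All of its columns belonged to the samples.

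Log2 intensities of 59305 gene spots were quantile normalized between the 16 arrays, spots marked as outliers were then left out, and the spots of a probe were averaged. A probe was kept where 3 or more arrays showed it well above background (33014 probes), and the probe with the highest mean was taken for each of 24357 symbols. Names came from the files, updated by RefSeq accession (assembly GRCm38.p6) for 61% of the genes. A limma model (version 3.58.1, R 4.3.3) with 4 groups and no covariate gave all contrasts, with Benjamini-Hochberg adjustment over all genes. The code was checked on simulated data. Precision is limited by how few arrays there are. The 75th percentiles of signal ranged from 842 to 2067, and p-values measure the spread between arrays. A fold is given as a bound where every array of a group left the probe undetected: the mean of the brighter group is set against the detection floor of each array of the other, taken as its dimmest detected probe or the probe's own value if higher.

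The members and lists were chosen with earlier results of these data known. All 35 members are accounted for, and those called in any contrast and a fixed set of T, B and NK genes are named with values, as are called genes of the other lists. The remaining members are given by values or ranges. These lists were other T, other B and plasma, other NK, pan-leukocyte, macrophage, neutrophil, dendritic, hepatocyte, stellate, cholangiocyte, erythroid and spleen, and pancreas genes.

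The replicate numbers come from the sample titles. Samples with the same number deviated together between WT and Lcn2-/- controls (r from 0.23 to 0.55 across genes in 3 pairs), and in no other pair of groups did every r exceed 0.1. Alternatives were 75th percentile scaling, normexp correction with an offset of 50, the authors' log2 values, other probe filters and summaries, array weights, slide and replicate number as blocks, the contrast's groups alone, and leaving out each array.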

Additional observations from a re-analysis of the deposited data

Results flagged for a closer look

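Within a group of 4 or 5 arrays, a single array lay far from the rest, by Dixon's ratio of its gap to the group's range, for 6 of 99 combinations of member and group. Chance gives about 1 in 20. Cd28 in the WT controls had a ratio of 0.934, with 7.41 on replicate 3 against 5.99 on the nearest array. In WT CCl4 the ratio was 0.76 for Themis (3.52 on replicate 2 against 3.11, both not well above background) and 0.79 for Gata3 (7.16 on replicate 2 against 6.07). In Lcn2-/- CCl4 it was 0.981 for Ctla4 (3.48 on replicate 2 against 2.93, both not well above background), 0.864 for Cd22 (9.79 on replicate 3 against 10.21) and 0.883 for Gzmb (7.99 on replicate 2 against 6.14).

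The fitted interaction of Themis was flagged too, at 2.4 on the log2 scale (limma, adjusted p = 0.00236). The probe was detected on WT control arrays alone, through which the gene passed the filter, so the value is a description and not a measured size. With the replicate number as a block the interaction was not called.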

How the results depend on the processing

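The number of called members was recomputed under each alternative. Beside 7 in WT (16.8% of all genes), slide as a block gave 2 (5.35%), the contrast's own groups alone 4 (15.5%), array weights 9 (29%) and leaving out both control replicates 3 gave 9 (22.4%). That last alternative was chosen after seeing that these arrays were high for many members, so its counts are a description. Beside 2 in Lcn2-/- mice (12.2%), detection on all 16 arrays gave 1 (11.9%), array weights 8 (28.6%), slide as a block 0 (1.74%) and leaving out both control replicates 3 gave 6 (15.1%). Beside 1 in the controls (0.53%), these gave 0 (0.301%) for detection on all arrays, 5 (5.21%) for array weights and 2 (0.632%) without both control replicates 3. The interaction call, Themis alone, went to 0 with normexp, with the deposited log2 values, with detection on all arrays and with the replicate block. That block gave 5 calls in WT (15.5% of all genes), where Prf1 (adjusted p = 0.0502) and Nkg7 (0.0838) were lost, and moved no call beyond these and the interaction. Under CCl4 the count between genotypes was 0 in all fits. Leaving out 1 array at a time gave 3 to 7 calls in WT, 1 to 3 in Lcn2-/- mice, 0 to 0 between genotypes under CCl4, 1 to 2 in the controls and 1 to 1 in the interaction. Over all genes the same fits called 10.3% to 21% in WT and 6.91% to 13.1% in Lcn2-/- mice. They called 0.312% to 0.768% between genotypes under CCl4, 0.386% to 0.587% in the controls and 0.0328% to 0.0616% in the interaction. The lowest WT count came without WT CCl4 replicate 1, and it was 4 without WT control replicate 1, WT control replicate 2 or WT CCl4 replicate 4. The Lcn2-/- count of 1 came without Lcn2-/- control replicate 1 or 2 or Lcn2-/- CCl4 replicate 3 or 4, and the control count of 2 without Lcn2-/- CCl4 replicate 1. Il7r kept its calls in all 16 such fits, and Cd4 did in WT, while in Lcn2-/- mice Cd4 lost its call in 4. With the dimmest tested probe of each gene, also added after seeing the data, Nkg7 in WT reversed to 0.027, Cd4 lost its calls in WT (-0.24, adjusted p = 0.266) and Lcn2-/- mice (-0.19, adjusted p = 0.493), and Cd6 was called in both (-1.68 and -1.26). Scaling to the 75th percentile moved the median of all genes to -0.16 in WT and -0.14 in Lcn2-/- mice, and that of the T genes to -0.48 and -0.15. The cause of these changes was not tested. Probes near the background, such as those of Themis, Trat1, Ctla4 and Klrb1c, limit what can be said of these genes.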

Other observations

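Genes of other liver cells that were called are given here as values. Of 6 stellate cell genes 5 rose with CCl4 in both genotypes: Col1a1 by 3.49 in WT and 4.21 in Lcn2-/- mice, Col3a1 by 2.64 and 3.20, Pdgfrb by 1.71 and 1.92, Lrat by 1.06 and 1.16, and Des by 0.98 and 1.11. Spp1, the osteopontin gene, among 5 cholangiocyte genes, rose by 1.67 and 2.10. Of 7 dendritic cell genes tested, Cd209a rose by 1.50 in Lcn2-/- mice (adjusted p = 0.0475) and Siglech was lower there (-0.62, adjusted p = 0.0325), beside Itgax in both genotypes. Of 9 hepatocyte genes Cyp3a11 was called, higher by 0.62 in Lcn2-/- mice (adjusted p = 0.0265). In WT, Alas2 of the erythroid list was lower (-0.82, adjusted p = 0.0198), and Amy2a5 of the pancreas list was higher (1.16, adjusted p = 0.0133). All adjusted p-values are from limma over 24357 genes.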
